A study of Mus musculus with 8 samples.

Results

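Matrix metalloproteinases and their tissue inhibitors were followed through the cells of MC38 tumors. The 9 genes described were *Mmp8*, *Mmp9*, *Mmp12*, *Mmp13*, *Mmp14*, *Mmp19*, *Timp1*, *Timp2* and *Timp3*, taken by name from the 24787 genes listed in the count tables of 8 tumors. Each tumor, grown from the mouse colon carcinoma line MC38 in a mouse of its own, was dissociated 24 h after dosing, and its CD45+ (leukocyte) and CD45- cells were put on Seq-Well arrays at a ratio of 9:1. In this assay, single cells share a well with a barcoded bead, and a unique molecular identifier (UMI) lets each captured transcript count a single time. The study asked which cells in the tumor responded to a Toll-like receptor 7/8 agonist, resiquimod (R848), given free or released slowly from a polymer. There were 3 tumors given saline, 3 given free R848 and 2 given medium R848-BPDs, bottlebrush prodrugs that carry R848 on a linker of medium release rate. Per the study's methods the mice were 8-week-old female C57BL/6J animals. All groups shared the MC38 line, and with 2 prodrug tumors every comparison with that group rested on a pair of animals. The 9:1 loading fixed the proportion of CD45+ cells, so that the numbers of malignant and stromal cells are not those of the tumor.

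Matrix metalloproteinases are zinc endopeptidases that cut collagens, gelatin, elastin and other extracellular proteins, and that are mostly made as inactive precursors. They are often grouped by what they cut. *Mmp8* (neutrophil collagenase) and *Mmp13* cleave fibrillar collagen, *Mmp9* is a gelatinase, *Mmp12* is the macrophage elastase, *Mmp14* is anchored in the cell membrane and activates the gelatinase *Mmp2*, and *Mmp19* acts on basement membrane proteins. *Timp1*, *Timp2* and *Timp3* bind the active site of these enzymes and block it, and *Timp3* is also held in the matrix and inhibits ADAM proteases. In tumors, macrophages, neutrophils and fibroblasts are known sources of these proteins.

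*Mmp13*, *Mmp12* and *Mmp8* lie within a cluster of 10 metalloproteinase genes on chromosome 9 (GRCm38, GENCODE vM21 annotation), from 7272514 to 7283331, 7344381 to 7369499 and 7558456 to 7568485, all on the plus strand and spanning 295972 bp together. *Mmp9* is on chromosome 2 from 164940780 to 164955850, *Mmp14* on chromosome 14 from 54431612 to 54445364, and *Mmp19* on chromosome 10 from 128790910 to 128800824. *Timp1* is on chromosome X from 20870166 to 20874735, *Timp2* on chromosome 11 from 118301069 to 118355740 on the minus strand, and *Timp3* on chromosome 10 from 86300372 to 86349506. Genes on the other strand overlap *Mmp12* (*Mmp1b*), *Mmp19* (*Gm47093* and *Tmem198b*), *Timp1* (*Syn1*) and *Timp3* (*Syn3*), and *Cep295nl* overlaps *Timp2* on the same strand, so that reads of such pairs could not be told apart where strand was not used in counting, which the sources used here do not state. The 150 bases before the transcription start (RefSeq, GRCm38.p6) are shown for the collagenases of this cluster, because one of them differed between treatments below and the other did not pass the test. Capitals mark an AP-1 site (TGANTCA) or a TATA box (TATAAA), both searched on either strand in the 250 bases before the start, where 6.75% and 12.4% of 32851 promoters held them.
Mmp8, chr9:7558279-7558428, plus strand: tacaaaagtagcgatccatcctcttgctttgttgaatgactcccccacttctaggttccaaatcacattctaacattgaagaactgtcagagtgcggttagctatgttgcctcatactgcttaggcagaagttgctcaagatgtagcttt
Mmp13, chr9:7272364-7272513, plus strand: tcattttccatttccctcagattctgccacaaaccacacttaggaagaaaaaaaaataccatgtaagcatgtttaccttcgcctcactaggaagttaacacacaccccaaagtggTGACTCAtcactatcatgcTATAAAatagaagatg
*Mmp13* held an AP-1 site 35 bases and a TATA box 16 bases before its start, whereas neither run of letters occurred in the window of *Mmp8*. The RefSeq start used for *Mmp8* lies upstream of the GENCODE gene. A match of letters is a description of the sequence and not of a bound factor.

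Of 10791 barcodes, 9886 passed the limits on genes, UMIs and mitochondrial share given in the study's methods, with 5867590 to 12422614 UMIs per tumor before these limits and a median of 3247 to 6928 UMIs per kept cell. Clusters of cells, drawn without the metalloproteinase, inhibitor and related genes, were named by fixed marker genes. They gave 5322 monocyte/macrophage-like, 1577 MC38-like, 1071 NK-like, 704 DC-like, 569 T-like, 140 neutrophil-like, 139 osteoclast-like and 51 fibroblast-like cells, while 313 cells stayed unnamed. Their leading genes included *C1qa* and *Apoe*, *Rhox5* and *Col6a1*, *Gzma* and *Prf1*, *Ccr7* and *Flt3*, *Cd3g* and *Cd8a*, *S100a8* and *S100a9*, *Ctsk* and *Acp5*, and *Col1a1* and *Col1a2*, in that order of classes. The unnamed cells were also led by *Rhox5* and *Col6a1*, at a low UMI count. *Mmp9*, though left out of the clustering and of the markers, was among the leading genes of the osteoclast-like cells. A total of 23 barcodes occurred in over 1 tumor, on 59 kept cells, and Scrublet scored 79 cells (0.799%) as doublets, which were kept. Levels are given as CPM, the UMIs of a gene in 1000000 UMIs of the class in a tumor, wherever that tumor had 10 cells of the class or more. Because each transcript is counted once whatever its length, they are compared between classes and tumors.

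The collagenases, the elastase and *Mmp19* were found mainly in monocyte/macrophage-like cells, *Mmp9* in osteoclast-like cells, and *Timp1* and *Timp3* mainly in MC38-like and fibroblast-like cells. Monocyte/macrophage-like cells made up 53.8% of the cells and 44.1% of the UMIs, and held 95.3% of the *Mmp13* UMIs, 93.9% of those of *Mmp12*, 76.6% of those of *Mmp8* and 72.4% of those of *Mmp19*. Neutrophil-like cells, 1.42% of the cells, held 15.4% of the *Mmp8* UMIs. Osteoclast-like cells, 1.41% of the cells, held 80.6% of the *Mmp9* UMIs. MC38-like cells held 90.2% of the *Timp3* and 70.0% of the *Timp1* UMIs, and fibroblast-like cells, 0.516% of the cells, held another 15.2% of the *Timp1* UMIs. Classes are clusters of the same cells, so that these differences between classes are given without a test. The CPM of the classes below also came from unlike sets of treatments. Fibroblast-like values came from medium R848-BPD tumors alone, osteoclast-like values from free R848 replicate 2 and saline replicate 3, and neutrophil-like values from no saline tumor.

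**Figure D1:**
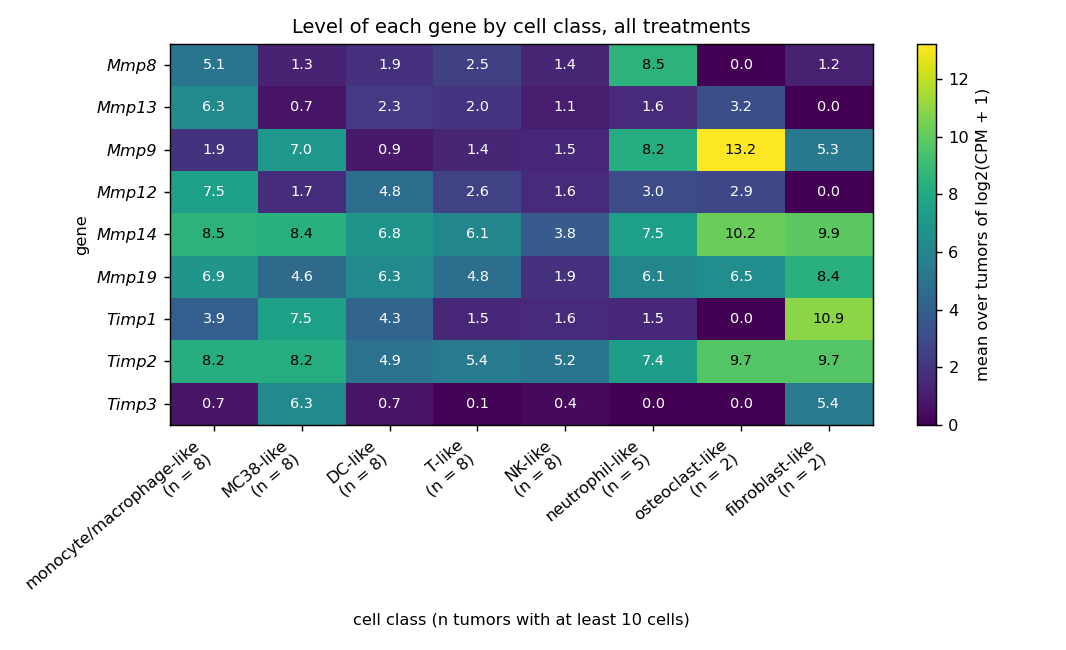
Mean over tumors of log2(CPM + 1) for each of the 9 genes (rows) in each cell class (columns), with n the number of tumors that had 10 cells of the class or more. The brightest cell is *Mmp9* in osteoclast-like cells (9578 CPM on average), *Timp1* is highest in fibroblast-like cells (1972 CPM), and *Timp3* is at or near 0 outside MC38-like and fibroblast-like cells.

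*Mmp8* averaged 796 ± 911 CPM (SD, n = 5 tumors) in neutrophil-like cells, 73.7 ± 98.7 (n = 8) in monocyte/macrophage-like cells and 16.1 ± 28.7 (n = 8) in DC-like cells, and the ranges of neighbouring classes overlapped throughout this order. It was at 0 in the osteoclast-like cells of both tumors with enough of them. *Mmp13* averaged 87.7 ± 52.0 CPM (n = 8) in monocyte/macrophage-like cells and under 10 CPM in each other class. *Mmp12* followed the same order at the top, with 248 ± 161 CPM in monocyte/macrophage-like and 111 ± 221 CPM in DC-like cells (n = 8 each). The DC-like mean rested on saline replicate 2, at 649 CPM, where 84 of 125 UMIs came from 1 cell.

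*Mmp9* reached 9604 and 9553 CPM in the osteoclast-like cells of free R848 replicate 2 and saline replicate 3, the 2 tumors with at least 10 such cells, and no other class overlapped them. It came next in neutrophil-like cells (326 ± 164 CPM, n = 5), fibroblast-like cells (312 CPM, with all 55 UMIs in 1 cell, and 4.23 CPM) and MC38-like cells (134 ± 36.6, n = 8), and stood at 3.21 ± 2.01 CPM (n = 8) in monocyte/macrophage-like cells, whose highest tumor (7.07 CPM) lay below the lowest MC38-like value (97.7 CPM). The membrane-anchored *Mmp14* was highest in osteoclast-like cells (1191 and 1239 CPM) and then in fibroblast-like cells (1139 and 820 CPM), followed by monocyte/macrophage-like cells (375 ± 69.9 CPM) and MC38-like cells (353 ± 97.9 CPM, n = 8 each). The last of these overlapped each other, and the first pair stood apart from them and from each other. *Mmp19* was spread more evenly, from 347 ± 130 CPM (n = 2) in fibroblast-like to 6.58 ± 10.7 CPM (n = 8) in NK-like cells, and no neighbours in its order were separate. In the DC-like cells of free R848 replicate 1, 154 of 157 *Mmp19* UMIs came from 1 cell.

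Among the inhibitors, *Timp1* was at 2398 and 1546 CPM in the fibroblast-like cells of the 2 medium R848-BPD tumors, 182 ± 26.7 CPM (n = 8) in MC38-like cells and 21.1 ± 23.5 CPM (n = 8) in monocyte/macrophage-like cells. Fibroblast-like and MC38-like cells did not overlap in *Timp1*, nor did MC38-like and DC-like cells, which came next. It was at 0 in osteoclast-like cells, the class with the most *Mmp9*. *Timp2* was measured in every class, from 836 ± 113 CPM (n = 2) in osteoclast-like to 36.7 ± 13.3 CPM (n = 8) in NK-like cells, with 326 ± 159 CPM in monocyte/macrophage-like cells. *Timp3* stood at 82.8 ± 26.9 CPM (n = 8) in MC38-like and at 22.7 and 76.1 CPM in fibroblast-like cells, and did not exceed 1.14 CPM in monocyte/macrophage-like cells of any tumor.

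Within monocyte/macrophage-like cells the 9 genes differed in how evenly their UMIs were spread over cells. In each tumor the 10 cells with the most *Mmp12* UMIs held 44.3% to 82.0% of them, and for *Mmp13* 41.6% to 74.6%. For *Mmp14* the 10 top cells held 4.94% to 14.8%. After thinning each cell to 1000 UMIs, *Mmp12* was found in 46.9% of cells with *Mmp13* and in 7.63% of the others after medium R848-BPDs, in 44.4% and 3.86% after free R848, and in 42.2% and 4.41% after saline. *Mmp12* was likewise found in 22.2% of cells with *Mmp8* and in 7.16% of those without after medium R848-BPDs. *Timp1* was found in 2.40% and 4.39% of these, respectively. These shares pool the cells of 2 or 3 tumors and carry no test.

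Between treatments, *Mmp8* was the only one of the 9 genes that passed the test in any class, and it was higher after medium R848-BPDs wherever it passed. In MC38-like, DC-like and neutrophil-like cells it passed the filter on low counts through the medium R848-BPD tumors, so that the shared direction there is no support. In monocyte/macrophage-like cells it was at 22.9, 23.3 and 36.4 CPM after free R848, at 199 and 262 CPM after medium R848-BPDs, and at 15.2, 3.53 and 27.6 CPM after saline. Both medium R848-BPD tumors thus lay above all 6 others, and free R848 and saline tumors overlapped. The difference from free R848 was 3.12 on the log2 scale (SE 0.57, edgeR quasi-likelihood adjusted p = 0.0369 over all genes) and that from saline 4.05 (SE 0.60, adjusted p = 0.00737). Free R848 and saline differed by 0.93 (SE 0.58, adjusted p = 0.567). Of the 8 members that passed the filter on low counts (*Timp3* did not), 1 was called in the comparison with free R848 against 1.66% of 10541 genes tested, 1 in that with saline against 6.92%, and 0 between free R848 and saline against 0.019%, where DESeq2 also called 0 and 0 had an unadjusted p under 0.05. The medium R848-BPD group was shared by the first 2 comparisons. The call against free R848 was lost in the fits without free R848 replicate 1, 2 or 3 (adjusted p = 0.15, 0.151 and 0.13 from edgeR), medium R848-BPD replicate 1 or 2 (0.0686 and 0.268) or saline replicate 1 (0.0633), and that against saline without medium R848-BPD replicate 2 (0.061), while the log2 difference stayed between 2.86 and 3.40 and between 3.47 and 4.78.

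**Figure D2:**
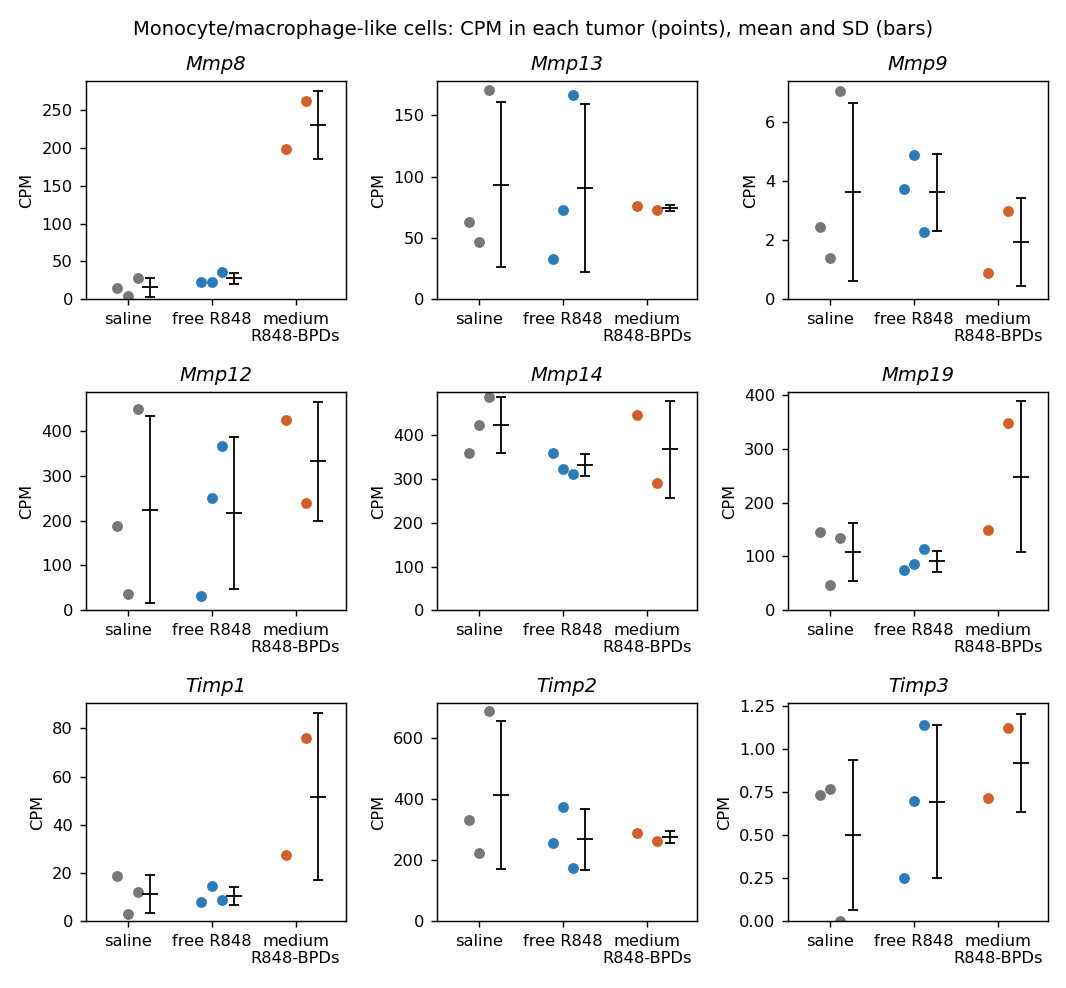
CPM of each of the 9 genes in monocyte/macrophage-like cells, 1 point per tumor, with the mean and SD of each treatment beside the points (3 saline, 3 free R848 and 2 medium R848-BPD tumors); each panel has its own linear axis from 0. For *Mmp8* both medium R848-BPD tumors (199 and 262 CPM) sit above all others (3.53 to 36.4 CPM), and for *Timp1* and *Mmp19* they are also the highest, with a wider spread.

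The higher level came with more positive cells. After thinning to 1000 UMIs per cell, 13.8 ± 0.421% (SD, n = 2) of the cells of this class held an *Mmp8* UMI when the mice had received medium R848-BPDs, against 2.13 ± 1.18% (n = 3) after free R848 and 1.55 ± 1.22% (n = 3) after saline. Thinning left out 1, 7 and 25 shallower cells. Both medium R848-BPD tumors lay above all others, free R848 and saline overlapped, and each difference from medium R848-BPDs (11.7 and 12.3 percentage points) had p = 0.1 by a two-sided exact permutation test, the smallest value that 2 against 3 tumors can give. Without thinning the shares were 28.1 ± 1.63%, 7.08 ± 1.29% and 3.68 ± 1.84%. T-like and NK-like cells served as classes that should lack the gene. After free R848 and saline, thinned T-like cells had 0 of 212 and 0 of 190 positive, which allows up to 1.42% and 1.58%, and NK-like cells 0 of 298 and 0 of 487, which allows up to 1.01% and 0.616%. These limits apply to cells with a UMI at this depth; without thinning, T-like cells were at 1.70 ± 1.82% after free R848 and 0.483 ± 0.837% after saline, and NK-like cells at 0.735 ± 0.715% and 0.309 ± 0.535% (n = 3 each). After medium R848-BPDs these classes were at 5.66 ± 6.88% and 2.58 ± 1.70% (n = 2), or 10.3 ± 7.82% and 4.18 ± 0.575% without thinning. The median depth was 5062.5 UMIs in monocyte/macrophage-like cells, 4770 in T-like cells and 5706 in NK-like cells. Such limits cover counting error only.

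Within the class, most of the *Mmp8* in medium R848-BPD tumors lay in cluster 5, with *Saa3* and *F13a1* among its leading genes. It held 366 and 266 monocyte/macrophage-like cells of the 2 medium R848-BPD tumors and 2 to 18 cells of each other tumor, and contained 86.3% and 84.8% of their *Mmp8* UMIs. In it, *Mmp8* stood at 417 and 505 CPM after medium R848-BPDs and at 107 CPM in each of free R848 replicates 2 and 3, with 18 and 15 cells. Over pooled tumors it was at 447 CPM after medium R848-BPDs, 129 CPM after free R848 and 217 CPM after saline. Without thinning, 40.7% of 632 cells of the cluster held an *Mmp8* UMI after medium R848-BPDs, 32.5% of 40 after free R848 and 44.4% of 9 after saline. Without cluster 5, monocyte/macrophage-like cells of medium R848-BPD tumors were at 46.2 and 71.3 CPM, those of free R848 tumors at 20.9, 21.4 and 34.3 CPM, and those of saline tumors at 14.3, 3.54 and 25.1 CPM, so that both medium R848-BPD tumors again lay above all others, and free R848 and saline overlapped. Cluster 0, led by *Pf4* and *Apoe* and present in each tumor, gave 114 and 135 CPM after medium R848-BPDs, 47.9, 46.0 and 73.2 CPM after free R848 and 7.10, 9.60 and 32.7 CPM after saline. Clusters 1 and 8, led by complement C1q genes and *Cx3cr1*, did not exceed 9.45 CPM in any tumor with at least 10 cells. Clusters 7 and 2 did not follow this order. Cluster 7, with *Ccl12* and *Apoe* among its leading genes and present in each tumor, was at 39.6 and 24.5 CPM after medium R848-BPDs, 61.6, 6.58 and 23.9 CPM after free R848 and 0 after saline, so that its highest value was that of a free R848 tumor. Cluster 2, led by *Chi3l3* and *Lyz2*, was at 23.4, 17.8 and 28.3 CPM after free R848 and 46.0, 41.0 and 27.1 CPM after saline, and had fewer than 10 cells in either medium R848-BPD tumor. Cluster 14, led by *Ccl8*, *Ccl6* and *Wfdc17*, was at 143 and 131 CPM in the medium R848-BPD tumors and at 0 in free R848 replicate 2, with 13 cells, and held 0 *Mmp8* UMIs in each other tumor. Different clusters thus held most of the class in different treatments, and these values carry no test.

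Because *Mmp8* is a neutrophil gene, neutrophil markers were read in the same sums. In monocyte/macrophage-like cells the 12 neutrophil markers together were at 562 to 731 CPM after medium R848-BPDs, 769 to 1260 CPM after free R848 and 444 to 1044 CPM after saline. *S100a9*, the most abundant of them in neutrophil-like cells, was at 4.12 to 14.9, 0.997 to 10.2 and 1.38 to 4.47 CPM. *Ly6g*, *Cxcr1* and *Stfa2l1* were at 0 after medium R848-BPDs. In neutrophil-like cells themselves, *Ly6g* was at 0 after free R848, and *Ly6g* and *Cxcr1* were at 0 after saline. *S100a8*, the partner of *S100a9*, moved with *Mmp8*, with 136 and 89 UMIs after medium R848-BPDs, 12, 10 and 22 after free R848 and 15, 2 and 10 after saline, and its part in the result was not tested. *S100a8* and *S100a9* gave 136 and 23 of the 3139 marker UMIs in medium R848-BPD replicate 1, and 89 and 40 of 1957 in replicate 2. For 100 *S100a9* UMIs there were 4835 and 1755 *Mmp8* UMIs in monocyte/macrophage-like cells of the 2 medium R848-BPD tumors, from 23 and 40 *S100a9* UMIs, and 21.2 and 18.9 in their neutrophil-like cells. In monocyte/macrophage-like cells with no UMI of *S100a8* or *S100a9*, *Mmp8* was at 171 and 218 CPM after medium R848-BPDs, 22.0, 23.7 and 36.3 CPM after free R848 and 14.4, 3.55 and 27.9 CPM after saline, in the same order as in all cells of the class. Cells with such a UMI numbered 90 and 70 in the medium R848-BPD tumors, where their *Mmp8* was at 408 and 531 CPM, and 3 to 18 in each other tumor. A gate on single cells placed 365 cells of the class with neutrophils, and with classes from that gate the log2 difference of *Mmp8* from free R848 was 3.11 (adjusted p = 0.0194 from edgeR). In the other classes of these tumors the ratio was 514 and 32.6 in MC38-like cells, from 7 and 95 *S100a9* UMIs, 183 and 43.6 in T-like cells, 56.9 and 59.5 in DC-like cells and 32.5 and 22.2 in NK-like cells, so that in MC38-like and T-like cells the tumors differed widely.

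**Figure D3:**
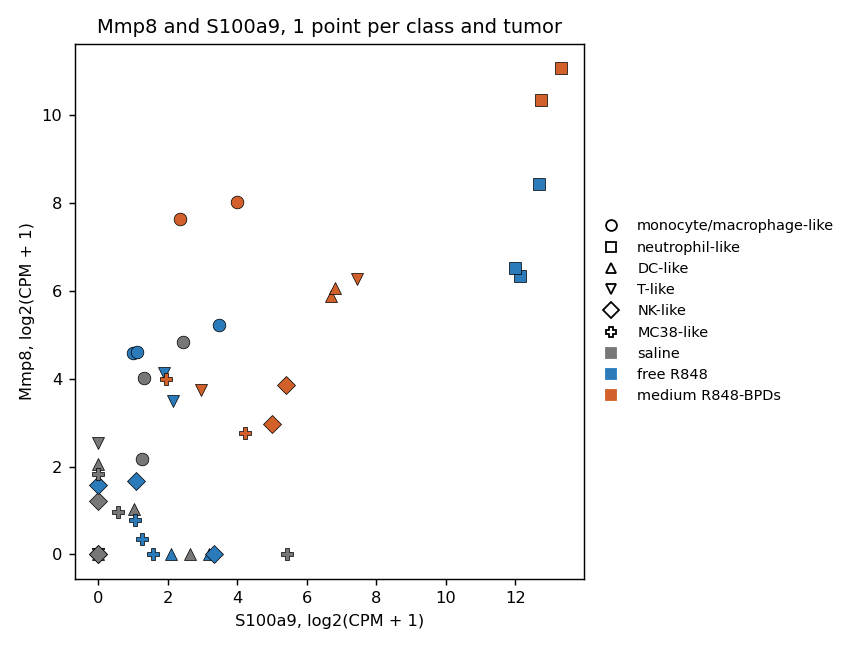
*Mmp8* against *S100a9* as log2(CPM + 1), 1 point per cell class (shape) and tumor (colour gives the treatment). Neutrophil-like cells lie far to the right, whereas monocyte/macrophage-like cells of medium R848-BPD tumors (199 and 262 CPM of *Mmp8*) lie high at 4.12 to 14.9 CPM of *S100a9*, and DC-like cells of these tumors lie between (103 to 111 CPM of *S100a9*).

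Neutrophil-like cells, few in number, also held more *Mmp8* after the prodrug than after the free drug. Their *Mmp8* was at 80.6, 91.0 and 346 CPM after free R848 (14, 18 and 40 cells) and at 2153 and 1310 CPM after medium R848-BPDs (21 and 33 cells). No saline tumor had 10 such cells. Both medium R848-BPD tumors lay above the free R848 tumors, by 3.20 on the log2 scale (SE 0.55, edgeR adjusted p = 0.0222 over these 5 tumors, a fit added after seeing the data). The call was lost without free R848 replicate 2 (adjusted p = 0.233 from edgeR). The UMIs behind it were 7, 8 and 55 after free R848 and 201 and 183 after medium R848-BPDs, so that *Mmp8* passed the filter on low counts through the medium R848-BPD tumors and the p-value gives no support beyond these counts. After thinning, 58.8 ± 1.71% (n = 2) and 9.88 ± 11.5% (n = 3) of the cells held a UMI of *Mmp8*, or 89.2 ± 1.84% and 27.8 ± 5.19% without thinning, with p = 0.1, again the smallest value the exact permutation test can give. *Mmp9*, another metalloproteinase of neutrophil granules, was at 138, 296 and 277 CPM after free R848 and 589 and 329 CPM after medium R848-BPDs, 0.93 on the log2 scale (SE 0.41, adjusted p = 0.525 from edgeR). Of 5 members that passed the filter there, 1 was called, against 0.528% of 1895 genes.

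In DC-like cells *Mmp8* was nearly confined to the medium R848-BPD tumors, with 41 and 22 UMIs (58.6 and 66.2 CPM), 0 in each free R848 tumor, and 1, 0 and 1 after saline. Over the pooled UMIs it was at least 21.1-fold higher than after free R848, taking 3 counts over the group as the floor, and 44.7 times the saline level (95% counting interval 11.9 to 377). Adjusted p was 0.0051 and 0.00094 (edgeR), and the first was lost without medium R848-BPD replicate 1 or 2 (0.0912 and 0.0551). *Mmp8* passed the filter on low counts through the medium R848-BPD tumors alone, where it was high, so that these p-values give no support beyond the counts. A single cell held 17 of the 41 UMIs and another 15 of the 22. A gate on single cells placed 36 cells of the class with neutrophils and 30 with monocytes/macrophages. With classes from that gate there was no DC-like value of *Mmp8*. Among the 6 members tested, 1 was called against free R848 beside 1.34% of 6060 genes and 1 against saline beside 15.9%. Between free R848 and saline 0 were called beside 1.9%, and 1 had an unadjusted p under 0.05. *S100a9* moved with *Mmp8* in these cells, at 103 to 111 CPM after medium R848-BPDs against 0 to 8.15 CPM in the other tumors. So did *Saa3*, a leading gene of the monocyte/macrophage-like cluster 5, with 634 and 765 UMIs after medium R848-BPDs and 0 to 6 in each other tumor. The 17 monocyte/macrophage markers together did not, at 4257 to 4738 CPM after medium R848-BPDs, 3621 to 4985 CPM after free R848 and 4225 to 7373 CPM after saline. *Lyz2*, a leading gene of cluster 2, went the other way, at 227 and 244 CPM against 410 to 2762 CPM in the other tumors. The part of these genes in the result was not tested.

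MC38-like cells held little *Mmp8*, with 36 and 31 UMIs (14.9 and 5.83 CPM) after medium R848-BPDs, 1, 2 and 0 after free R848 and 6, 4 and 0 after saline. The pooled level was 22.8 times that after free R848 (95% counting interval 7.47 to 113; adjusted p = 0.0489 from edgeR), a call lost in each fit without 1 tumor except those without saline replicate 2 or 3, where adjusted p ranged from 0.0577 to 0.222. Against saline the log2 difference was 2.86 (SE 0.70, adjusted p = 0.0863 from edgeR). Here too *Mmp8* passed the filter through the medium R848-BPD tumors, where it was high, and the p-values give no support beyond the counts. A single cell held 22 of the 36 UMIs and another 12 of the 31. Neutrophil markers together were at 35.6 to 69.0 CPM after medium R848-BPDs, 33.9 to 45.8 CPM after free R848 and 54.0 to 132 CPM after saline. *Saa3*, a leading gene of the monocyte/macrophage-like cluster 5, moved with *Mmp8*, with 540 and 1186 UMIs after medium R848-BPDs, 9, 29 and 4 after free R848 and 17, 3 and 1 after saline. The 17 monocyte/macrophage markers together did not, at 185 to 334 CPM after medium R848-BPDs, 168 to 843 CPM after free R848 and 487 to 1574 CPM after saline. *Lyz2* went the other way, at 22.7 and 13.7 CPM against 78.2 to 190 CPM in the other tumors. The part of these genes in the result was not tested. Of 8 members tested (*Mmp13* did not pass the filter), 1 was called against free R848 beside 0.278% of 10795 genes. Against saline 0 were called by edgeR beside 0.787%, 1 by DESeq2, and 2 had an unadjusted p under 0.05. Between free R848 and saline 0 were called by either tool beside 0% of genes, and 3 had an unadjusted p under 0.05. Thinned to 1000 UMIs, *Mmp8* was found in 2 of 577 MC38-like cells after medium R848-BPDs and in 0 of 490 after free R848, which allows up to 0.612%.

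**Figure D4:**
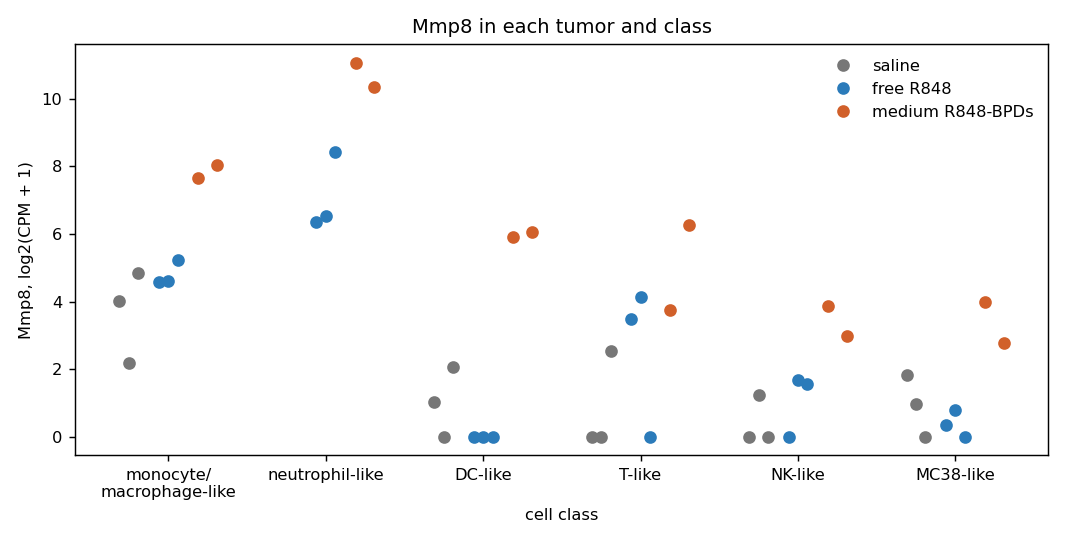
*Mmp8* as log2(CPM + 1) in each tumor, by cell class and treatment, 1 point per tumor that had 10 cells of the class or more. In each class shown the 2 medium R848-BPD tumors are at or near the top, from 14.9 and 5.83 CPM in MC38-like to 2153 and 1310 CPM in neutrophil-like cells; no saline tumor had 10 neutrophil-like cells.

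*Mmp8* did not pass the filter on low counts in T-like and NK-like cells, so that counts are given alone. T-like cells held 28 *Mmp8* UMIs after medium R848-BPDs, 12 after free R848 and 1 after saline, and NK-like cells 28, 3 and 1. The pooled level after medium R848-BPDs was 2.597 times that after free R848 in T-like (95% counting interval 1.28 to 5.61) and 10.1 times in NK-like cells (3.12 to 51.8). *S100a9* was at 6.78 to 175 and 30.9 to 41.5 CPM in these classes after medium R848-BPDs, and at no more than 3.42 and 9.11 CPM in the other tumors. *Saa3* had 1292 and 663 UMIs in T-like and 652 and 195 in NK-like cells after medium R848-BPDs, against 0 to 13 and 0 to 5 in the other tumors. The 17 monocyte/macrophage markers overlapped in T-like cells, at 3974 to 7781 CPM after medium R848-BPDs, 4106 to 6928 CPM after free R848 and 3755 to 8740 CPM after saline. The part of these genes in the counts was not tested. None of the 4 members tested in T-like cells and of the 3 in NK-like cells was called. The share of genes called in the comparisons with free R848, with saline and between them was 0.0152%, 0.0457% and 0% of 6566 genes in T-like cells, and 0.185%, 0.82% and 0.0116% of 8657 genes in NK-like cells. An unadjusted p under 0.05 was found for 0 members in each comparison of T-like cells and for 1, 1 and 2 in NK-like cells, and over DC-, T- and NK-like cells together DESeq2 called 1, 2 and 0 members.

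Whether the responses differed between classes was tested directly, by an interaction of class and treatment in a fit blocked on tumor. The difference in *Mmp8* response between MC38-like and monocyte/macrophage-like cells was 1.24 (SE 1.08, adjusted p = 0.742 from edgeR) for medium R848-BPDs against free R848 and -1.75 (SE 0.97, adjusted p = 0.411) against saline. No *Mmp8* term of DC-, T- or NK-like cells passed the test either, with a lowest adjusted p of 0.132. Among all members, 1 term passed, that of *Mmp12* in MC38-like cells for medium R848-BPDs against saline, of 9 tested beside 1.8% of 11790 genes (-4.85 on the log2 scale, SE 1.04, adjusted p = 0.0421 from edgeR). It was lost without free R848 replicate 1 or 3 (adjusted p = 0.0594 and 0.0602), medium R848-BPD replicate 1 or 2 (0.0846 and 0.3) or saline replicate 1 (0.173). The term of *Timp1* in MC38-like cells for medium R848-BPDs against free R848 was -2.49 (SE 0.59, adjusted p = 0.113 from edgeR) and passed without saline replicate 1 or 2 (adjusted p = 0.0498 and 0.00163). For MC38-like cells the background was 0.551% for medium R848-BPDs against free R848 and 0% for free R848 against saline. With 8 members tested in each other class, the 3 backgrounds in the same order of comparisons were 0.182%, 3.32% and 0.0765% for DC-like cells, 0.187%, 0.262% and 0.0187% for T-like cells, and 0.0826%, 0.606% and 0% for NK-like cells.

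The other proteases of the list did not pass the test in monocyte/macrophage-like cells. *Mmp13*, the other collagenase, was at 33.2, 72.9 and 167 CPM after free R848, 75.9 and 72.8 CPM after medium R848-BPDs and 63.2, 46.9 and 171 CPM after saline. All groups overlapped. *Mmp12* was at 31.9, 251 and 367 CPM, 425 and 239 CPM, and 188, 36.7 and 449 CPM, a wide spread within each group, and the log2 difference of medium R848-BPDs was 0.63 from free R848 (SE 1.01, adjusted p = 0.841 from edgeR) and 0.56 from saline (SE 1.01, adjusted p = 0.777). In cluster 5 it was at 936 CPM over all tumors and in cluster 0 at 401 CPM, against 168 CPM in cluster 14 and 10.1 to 80.3 CPM in clusters 1, 2, 7 and 8. By treatment, cluster 5 was at 779 CPM of *Mmp12* over its 632 cells after medium R848-BPDs, at 2907 CPM over 40 cells after free R848 and at 3565 CPM over 9 cells after saline. *Mmp14* was the steadiest, at 360, 323 and 313 CPM, 446 and 290 CPM, and 360, 423 and 487 CPM. *Mmp9* did not exceed 7.07 CPM in any tumor.

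*Mmp19* was higher in the medium R848-BPD tumors than in each free R848 tumor, without passing the test. It was at 74.0, 85.4 and 113 CPM after free R848, 149 and 347 CPM after medium R848-BPDs and 146, 46.4 and 134 CPM after saline, and both medium R848-BPD tumors were above all others, replicate 1 by a small margin. The log2 difference was 1.499 from free R848 (SE 0.51, adjusted p = 0.211 from edgeR) and 1.23 from saline (SE 0.51, adjusted p = 0.176). Unlike *Mmp8*, its UMIs in medium R848-BPD tumors were not mostly in cluster 5 in both, with 61.9% and 35.7% there. Cluster 14, with 33 and 104 cells of the 2 medium R848-BPD tumors and at most 13 of any other, had the highest *Mmp19* (546 CPM), *Timp1* (123 CPM) and *Timp2* (1062 CPM) of the 7 clusters when all tumors were pooled. In the saline tumors alone its *Mmp19* was at 173 CPM, below the 280.0 CPM of cluster 2.

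Among the inhibitors in monocyte/macrophage-like cells, *Timp1* was at 7.98, 14.7 and 8.72 CPM after free R848, 27.4 and 76.2 CPM after medium R848-BPDs, and 18.9, 2.92 and 12.3 CPM after saline. Both medium R848-BPD tumors were above all others. The log2 difference of 2.32 from free R848 (SE 0.67, adjusted p = 0.144 from edgeR) and of 2.26 from saline (SE 0.67, adjusted p = 0.0782) did not pass. Fibroblast markers moved with it, since the 11 of them summed to 38.3 to 75.0 CPM after medium R848-BPDs, 26.3 to 34.9 CPM after free R848 and 26.1 to 32.6 CPM after saline, with *Lum* at 0 in each group, and their part in *Timp1* was not tested. After thinning, *Timp1* was found in 4.46 ± 3.10% (n = 2) of cells of medium R848-BPD tumors, in 0.802 ± 0.186% (n = 3) of those of free R848 tumors and in 1.12 ± 0.935% (n = 3) of those of saline tumors, or in 13.5 ± 6.04%, 4.47 ± 0.899% and 4.05 ± 2.11% without thinning. Each difference from medium R848-BPDs had p = 0.1, the smallest value of the exact permutation test. *Timp2* was at 258, 375 and 176 CPM, 291 and 263 CPM, and 332, 224 and 689 CPM, and all groups overlapped. With edgeR, in the fit of medium R848-BPDs and free R848 alone, and in that without saline replicate 2, *Timp1* and *Mmp19* both passed against free R848.

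In MC38-like cells, which held most of the *Timp1* and *Timp3*, neither changed by the test. *Timp1* was at 187, 203 and 229 CPM after free R848, 145 and 185 CPM after medium R848-BPDs and 155, 168 and 183 CPM after saline. *Timp3* was at 51.6, 79.5 and 47.9 CPM after free R848, 133 and 82.6 CPM after medium R848-BPDs and 77.1, 94.1 and 97.3 CPM after saline. Medium R848-BPD tumors were thus above free R848 tumors and overlapped saline tumors, with a log2 difference from free R848 of 0.83 (SE 0.22, adjusted p = 0.137 from edgeR) that DESeq2 called. *Mmp9* was at 113, 122 and 97.7 CPM, 130 and 122 CPM, and 145, 127 and 219 CPM, so that each saline tumor was above each free R848 tumor. The difference did not pass. *Mmp14* (229 to 495 CPM) and *Timp2* (188 to 432 CPM) overlapped in all groups.

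*Mmp12* in MC38-like cells was sparse, at 2 and 2 UMIs after medium R848-BPDs, 3, 1 and 10 after free R848 and 47, 8 and 4 after saline. The pooled level after medium R848-BPDs was 0.0656 times that after saline (95% counting interval 0.0173 to 0.177), and a single cell of saline replicate 1 held 24 of its 47 UMIs. The difference within MC38-like cells did not pass (adjusted p = 0.185 from edgeR), whereas the contrast of this response with that of monocyte/macrophage-like cells did. The 17 monocyte/macrophage markers summed to 185 to 334 CPM in MC38-like cells after medium R848-BPDs, 168 to 843 CPM after free R848 and 487 to 1574 CPM after saline, and their part in the result was not tested.

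**Figure D5:**
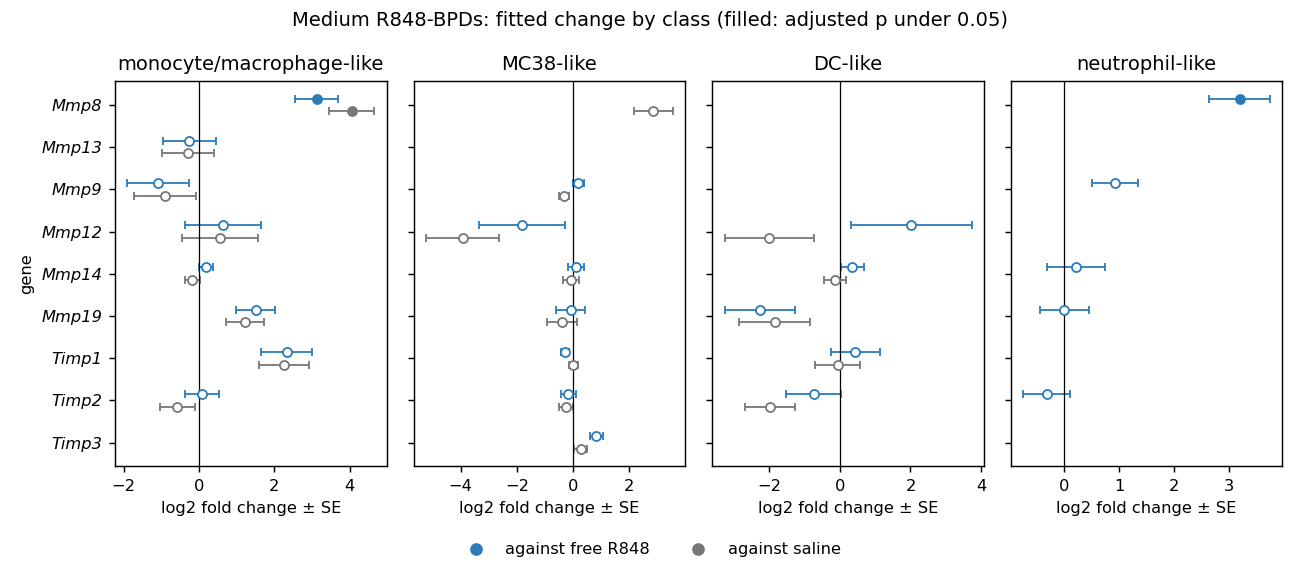
Log2 fold change ± SE of medium R848-BPDs against free R848 (blue) and against saline (grey) for each of the 9 genes in 4 cell classes, with filled points for adjusted p under 0.05. Genes that did not pass the filter, and comparisons in which either group held 3 UMIs or fewer, have no point, which leaves out the *Mmp8* calls in MC38-like and DC-like cells. The filled points are all of *Mmp8*, at 3.12, 4.05 and 3.20. The last is of neutrophil-like cells, where *Mmp8* passed the filter through the medium R848-BPD tumors and the p-value gives no support beyond the counts.

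Other genes of the pathway were read from lists of further metalloproteinases, further inhibitors, activators and docking proteins, ADAM and ADAMTS proteases, and matrix substrates. In monocyte/macrophage-like cells, 3 of the 41 that could be tested passed between medium R848-BPDs and free R848, beside 1.66% of all genes. *Mmp27*, another gene of the metalloproteinase family, was higher (6.80 and 9.33 CPM against 2.24 to 2.33 CPM; log2 difference 1.83, adjusted p = 0.0437 from edgeR), though it passed the filter on low counts through the medium R848-BPD tumors alone, so that its p-value gives no support beyond these levels and its place in the counts of genes that passed carries the same limit. *Lcn2*, whose human protein binds MMP9 and protects it from degradation, was higher (610 and 616 CPM against 9.10 to 14.2 CPM). *Plau*, the urokinase that activates plasminogen and thereby metalloproteinase precursors, was lower (20.8 and 27.6 CPM against 104 to 141 CPM, log2 difference -2.24, adjusted p = 0.014 from edgeR). By list, 1 of 2 other metalloproteinases, 0 of 4 inhibitors, 2 of 13 activators and docking proteins, 0 of 6 ADAM and ADAMTS genes and 0 of 16 substrates passed. Their median log2 differences were 0.41, 1.56, 0.04, -0.01 and 0.35, beside -0.01 over all genes. When any free R848 or medium R848-BPD tumor was left out 1 of these genes passed, and without saline replicate 2 10 passed.

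Against saline, 8 of these 41 genes passed in monocyte/macrophage-like cells, beside 6.92% of all genes. *Mmp27* (1.22 to 2.23 CPM after saline), *Lcn2* (0 to 0.372 CPM, 3 UMIs in all, adjusted p = 7.4e-07 from edgeR) and the substrates *Col4a2*, *Dcn* and *Sparc* were higher, *Col4a2* at no more than 3.22 CPM and again through the filter by the medium R848-BPD tumors alone, and *Sparc* at 17.2 and 26.9 CPM against 7.45 to 10.6 CPM. *Plau* (255 to 422 CPM after saline), *Itgav* (50.8 and 67.6 against 96.0 to 128 CPM), an integrin subunit that docks metalloproteinases, and *Cst3*, a cysteine protease inhibitor (990 and 1069 against 1467 to 1690 CPM), were lower. *Dcn* is one of the fibroblast markers given above. Median log2 differences by list were 0.60, 1.19, 0.07, -0.37 and 0.63, beside -0.01 over all genes. The number that passed was 5 without medium R848-BPD replicate 1 or saline replicate 1, 16 without saline replicate 2, and 2 once medium R848-BPD replicate 2 was removed. Between free R848 and saline 1 of 41 passed (0.019% of all genes), *Lcn2*, and 6 without saline replicate 2. The most abundant others in these cells were the cathepsins *Ctss* and *Ctsb* (4396 to 7180 and 4325 to 7492 CPM), *Adam8* (388 to 1233 CPM) and *Adam10* (209 to 487 CPM), *Thbs1* (680 to 3679 CPM) and *Spp1* (170 to 4351 CPM), and *Mmp25* (1.96 to 11.5 CPM).

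In MC38-like cells, 2 of 47 tested pathway genes passed between medium R848-BPDs and free R848, both higher, beside 0.278% of all genes. They were *Lcn2* (15.2 and 15.3 CPM against 0 to 1.66 CPM, which passed the filter through the medium R848-BPD tumors alone, so that its calls here and against saline give no support beyond the levels) and *Adam9*, a membrane sheddase (102 and 124 against 63.0 to 68.7 CPM; log2 difference 0.78, adjusted p = 0.0374 from edgeR). Against saline 2 passed (0.787% of all genes), *Lcn2* again and the cathepsin *Ctsl* (680 and 726 against 459 to 511 CPM; log2 difference 0.58, adjusted p = 0.0319), both higher. Between medium R848-BPDs and free R848, 0 passed once medium R848-BPD replicate 2, or either replicate 2 or 3 of free R848, was removed, and 1 passed with replicate 1 of free R848 or of saline removed. Against saline 0 passed without medium R848-BPD replicate 2, 4 without medium R848-BPD replicate 1, and 1 without any other tumor but saline replicate 2. Between free R848 and saline edgeR called 0 of them, as of all genes (0%), where DESeq2 called 11 of all genes and 912 had an unadjusted p under 0.05. The most abundant members of the lists were *Mmp2* (62.3 to 206 CPM) and *Mmp16* (14.3 to 62.7 CPM), *Cst3* (441 to 592 CPM), *Bsg* (548 to 850 CPM), which induces metalloproteinases in neighbouring cells, *Adamts1* (90.4 to 215 CPM) and *Adam10* (111 to 159 CPM), and *Spp1* (1208 to 1914 CPM) and *Sparc* (1081 to 1442 CPM). In these cells *Mmp14* and its substrate *Mmp2* were thus both measured, and *Mmp2* was at no more than 2.77 CPM in monocyte/macrophage-like cells.

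The genes most like each member were taken by Pearson's r of log2(CPM + 1) over 49 sums of a class in a tumor, among 9141 genes with a mean of at least 10 CPM. Points share tumors, depth and cell type, so that r is a description. For *Mmp8* they were *Grina* (r = 0.894), the formyl peptide receptor *Fpr1* (0.883) and the neutrophil-attracting chemokine *Cxcl3* (0.865). *Mmp12* and *Mmp13* were each other's nearest gene (0.758), followed by *Dpep2* (0.742) and *Lyz1* (0.708) for *Mmp12* and by *Hpgds* (0.746) and *Trem2* (0.744) for *Mmp13*. Those of *Mmp9* were *Gsr* (0.744), *Eif4ebp1* (0.729) and *Gm14005* (0.717). *Plxnb2* (0.918), *Myof* (0.889) and *Cmtm3* (0.886) were nearest to *Mmp14*, and the endocytic receptor *Lrp1* (0.814), *Sgms1* (0.814) and *St3gal1* (0.802) to *Mmp19*. *Timp1* was nearest to the matrix genes *Fbn1* (0.918) and *Dcn* (0.856) and to *Ppap2b* (0.871), *Timp2* to *Mcfd2* (0.851), *Emp1* (0.828) and *Aldh2* (0.805), and *Timp3* to *Npdc1* (0.953), *Vldlr* (0.946) and *Cachd1* (0.943).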

How the data were processed

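Seq-Well libraries of 8 MC38 tumors were analysed, 3 given saline, 3 given free R848 and 2 given medium R848-BPDs, grouped by their titles. The deposited values are UMI counts without normalization, 1 for each gene in each cell, which the authors mapped to mm10 per the labels, whose processing notes also name bcl2fastq. The aligner and the use of strand are not given in the sources used here. No batch or run is given. The 9 genes, the other gene lists and the tests were chosen with earlier results of these data known.

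Cells with over 400 and under 10000 genes, under 50000 UMIs and at most 15% mitochondrial UMIs were kept. They were clustered with Seurat 5.3.0 (30 principal components, resolution 0.8, 2000 variable genes, of which 1966 were used after leaving out the listed protease, inhibitor, activator and docking genes). The listed matrix substrates were not left out, so that the classes were not drawn blind to them. A cluster was named from fixed markers when at least 3 were detected no other class had more among its 10 leading genes, and its depth relative to its tumors was not over 3 times below that of the deepest cluster of its class, a rule revised after a first clustering had been seen. Scrublet scored doublets.

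Counts were summed per tumor and class with at least 10 cells and tested with edgeR 4.0.16 (quasi-likelihood, TMM, filterByExpr, all 3 treatments in 1 fit; R 4.3.3), with Benjamini-Hochberg adjustment over all genes at 0.05. Differences in response between classes were interaction terms with the tumor as a block. Shares of positive cells were taken after thinning to 1000 UMIs and compared by exact permutation over tumors (two-sided, scipy 1.17.1). Limits on a share of 0 are 3 counts of the total, and intervals of a ratio of counts are exact at 95%. Both cover counting error only. Depth was 5867590 to 12422614 UMIs per tumor. In simulated data with 200 genes changed by 2 on the log2 scale, 82% were recovered in monocyte/macrophage-like and 92.5% in MC38-like cells. In each of these classes 16 unchanged genes were called as well, and 14, 12 and 19 in DC-, T- and NK-like cells.

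Named genes were the 9 members, the genes of the other lists that passed the test, the 2 of each list with the highest mean level in monocyte/macrophage-like and MC38-like cells, and the 3 genes most correlated with each member, except that some items are not reported here. Promoters came from RefSeq, where 7 members had an entry. *Mmp9* and *Mmp19* had none. Alternatives were RLE size factors, DESeq2 1.42.0, no filter, only the compared treatments, a replicate block, leaving out each tumor, a gate on each cell in place of clusters, no doublets, at least 25 cells, and clusters from all variable genes. Leaving out cells whose barcode occurred in over 1 tumor, and the fit of neutrophil-like cells, were added after seeing the data. Same-numbered tumors of different treatments did not deviate together (r from -0.28 to 0.23 over 7 pairs), so that the numbers were not taken as pairs.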

Additional observations from a re-analysis of the deposited data

Results flagged for a closer look

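The response of *Mmp12* to medium R848-BPDs against saline differed, within tumors, between MC38-like and monocyte/macrophage-like cells by a test of the difference itself. It was lower by 4.85 in MC38-like cells (interaction -4.85 on the log2 scale, SE 1.04, adjusted p = 0.0421 from edgeR). MC38-like cells held 4 *Mmp12* UMIs after medium R848-BPDs and 59 after saline, of which 47 were in replicate 1 and 24 of these in 1 cell. Without that replicate the difference was -3.59 (adjusted p = 0.173 from edgeR), and the test was also not passed without free R848 replicate 1 or 3 (adjusted p = 0.0594 and 0.0602) or either medium R848-BPD tumor (0.0846 and 0.3). Monocyte/macrophage markers in MC38-like cells summed to 185 to 334 CPM after medium R848-BPDs and 487 to 1574 CPM after saline, and their part in the result was not tested. In monocyte/macrophage-like cells *Mmp12* was at 425 and 239 CPM after medium R848-BPDs and 188, 36.7 and 449 CPM after saline.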

How the results depend on the processing

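Over 44 results and 648 alternative values, 523 kept their direction and side of the threshold (or stayed within 1.5 times for counts), 81 moved, 24 were weaker, 20 were stronger and none reversed. Counts could only stay or move, so that a reversal was not possible for them. All 81 moved and all 24 weaker values belonged to 25 main results, chiefly counts of genes called and *Mmp8* values, where 291 stayed the same. The other 19 results gave 232 that stayed the same and the 20 stronger ones. In the following, counts come in the order medium R848-BPDs against free R848, medium R848-BPDs against saline, and free R848 against saline. Without a filter on low counts, the members called were 4, 5 and 2 in monocyte/macrophage-like cells, 2, 2 and 3 in MC38-like cells and 4, 6 and 1 in the other classes together, and the other pathway genes called were 16, 22 and 8 in monocyte/macrophage-like and 10, 17 and 6 in MC38-like cells. DESeq2 called 1 member against saline in MC38-like and 2 in the other classes, and 6, 14 and 2 other pathway genes in monocyte/macrophage-like and 7 against saline in MC38-like cells. With only the 2 treatments compared, 3 and 0 members and 8, 2 and 0 other pathway genes were called in monocyte/macrophage-like cells, and 1 and 1 other pathway genes in MC38-like cells, and *Mmp8* differed from saline by 4.02 (adjusted p = 0.0539 from edgeR). With a gate on each cell, 0 members were called against free R848 in MC38-like cells and 0 and 0 in the other classes, where it gave no DC-like value of *Mmp8*, and of the other pathway genes 0 between free R848 and saline in monocyte/macrophage-like cells and 4 against saline in MC38-like cells. With clusters from all variable genes, 0 members were called against free R848 in MC38-like cells (*Mmp8* adjusted p = 0.0508 from edgeR).

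With a replicate block, 0 members were called against free R848 in MC38-like cells (*Mmp8* adjusted p = 0.107 from edgeR), 2 and 1 in the other classes against saline and between free R848 and saline, and of the other pathway genes 0 between free R848 and saline in monocyte/macrophage-like and 0 and 1 in MC38-like cells. The block changed no other of these calls.

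Leaving out 1 tumor at a time, members called ranged from 0 to 3 and 0 to 1 in monocyte/macrophage-like cells, 0 to 1 against free R848 in MC38-like cells, and 0 to 1 and 1 to 2 in the other classes. Other pathway genes called ranged from 1 to 10, 2 to 16 and 1 to 6 in monocyte/macrophage-like and 0 to 3 and 0 to 4 in MC38-like cells, with the highest counts in monocyte/macrophage-like cells without saline replicate 2. The log2 difference of *Mmp8* ranged from 2.86 to 3.40 and 3.47 to 4.78 in monocyte/macrophage-like cells and 2.801 to 4.396 in neutrophil-like cells (lost at 2.92 without free R848 replicate 2). Its adjusted p from edgeR against free R848 ranged from 0.0332 to 0.222 in MC38-like and 0.00237 to 0.0912 in DC-like cells, and the *Mmp12* difference in response from -5.57 to -3.59. Over its alternatives *Mmp8* kept its call in monocyte/macrophage-like cells in 12 of 18 against free R848 and 16 of 18 against saline. Over all genes in monocyte/macrophage-like cells, the genes called against free R848 were 175, and 369 with DESeq2, 934 without a filter, 497 with only the 2 treatments, 71 with the replicate block and 17 to 575 without 1 tumor, and those called against saline were 729, and 1751 without a filter, 157 with the 2 treatments, 388 with the replicate block and 87 to 1186 without 1 tumor. The cause of these shifts was not tested. After the filter on low counts, the tests covered 5 members for neutrophil-like cells, 4 for T-like cells and 3 for NK-like cells.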
